A study of Mus musculus with 75 samples.

Results

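Csf1r, Csf2ra, Csf2rb, Csf2rb2, Csf3r, Il3ra, Il6ra and Epor encode receptors through which cytokines act on blood-forming cells. The 8 genes were chosen by name, and all 8 were found among the 41388 mouse gene IDs counted in each of 2 tables. The tables hold 75 bulk RNA-seq libraries in 20 groups, made from sorted blood cells of 8-week-old mice. ko libraries came from Kmt2c f/f; Vav-Cre mice, het libraries from Kmt2c f/+; Vav-Cre mice, and wt libraries from wild type mice. In the first experiment, 48 untreated libraries cover 4 populations, HSC (haematopoietic stem cells), HPC, pGM and GMP, with 4 ko, 4 het and 4 wt libraries in each (the last 3 abbreviations are the labels' own). In the second experiment, 27 libraries of HSC and HPC came from mice given interleukin-1 (IL-1, 0.5 ug per mouse, 3 days) or the vehicle PBS: 4 ko IL-1, 4 ko PBS, 3 wt IL-1 and 4 wt PBS libraries of HSC, and 3 of each for HPC. Vav-Cre drives recombination in blood-forming cells and their descendants, and Kmt2c encodes a histone methyltransferase. The wt label names no Cre, so in any difference of ko or het from wt, the Kmt2c allele and the Cre cannot be told apart. Nothing in the labels says which libraries came from separate mice, so p-values speak only of library-to-library spread, which may be technical.

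Blood-forming cells read their surroundings through such receptors, and the mix a cell carries changes as it commits to a lineage. Csf1r, the receptor for M-CSF (Csf1) and IL-34, is a receptor tyrosine kinase of the monocyte and macrophage lineage. The other members are cytokine receptors without a kinase of their own, which signal through bound Janus kinases and STAT factors: Csf3r binds G-CSF and supports neutrophil production, and Epor binds erythropoietin and supports red cell production. Csf2ra and Il3ra are the alpha chains that bind GM-CSF and IL-3, and each signals with the beta chain Csf2rb. The mouse has a second, IL-3-specific beta chain, Csf2rb2, encoded beside Csf2rb. Il6ra binds IL-6 and signals through gp130, the product of Il6st. IL-1 is an inflammatory cytokine known to drive myeloid output from haematopoietic stem cells.

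The libraries held 13.3 to 20.8 M counted reads in the first experiment and 18.6 to 42.8 M in the second. Levels are given in CPM, the count of a gene per M counts of its library, after TMM scaling over the libraries of an experiment, and comparisons used edgeR's quasi-likelihood test with Benjamini-Hochberg adjustment over all genes tested, a gene being called at an adjusted p below 0.05. Where the libraries of compared groups are said to overlap or not, this is a description without a test. The share of all genes without overlap was not counted, so separation alone does not make a difference. Kmt2c reads were lower in ko than in wt libraries by log2 changes of -1.68 in HSC, -1.70 in HPC, -1.77 in pGM and -1.52 in GMP, all called. For het against wt, Kmt2c was called in no population (-0.53, -0.35, -0.37 and -0.63 in the same order). For ko against het it was called lower in HSC, HPC and pGM, and not in GMP (-0.89, adjusted p 0.7115). In the second experiment, ko against wt was called after PBS (-1.55 in HSC, -1.51 in HPC). After IL-1 it was called in HPC (-1.68) and not in HSC (-1.16, adjusted p 0.279). The library labelled HSC wt IL-1 replicate 1 held 13.99 CPM of Kmt2c, against 41.6 and 42.6 CPM in the other HSC wt IL-1 libraries and 12.7 to 16.8 CPM in the 4 HSC ko IL-1 libraries. Its Kmt2c level thus lay within the ko range and against its label. Member results of the comparisons that include its group are also given without it. Shares over all genes, pathway genes, marker sums and the other comparisons fitted together with it are given only with it. The HSC libraries of the second experiment carry HSC in their titles and HPCs in their cell type entry, and they are called HSC here. Summed HSC-associated markers in wt libraries ran at 3511 to 4536 CPM in HSC, 1281 to 1663 in HPC, 552 to 851 in pGM and 56.9 to 73.3 in GMP, and summed granulocyte-monocyte progenitor markers at 975 to 2374, 2523 to 3005, 16366 to 22501 and 144033 to 175978 CPM in the same order. In HSC, the 3 libraries numbered 4 (1 of each genotype) stood apart, with 584 to 681 CPM of the neutrophil gene S100a8 and 5.81 to 9.24 CPM of Csf1r, against 3.83 to 23.4 and 0.378 to 2.73 CPM in the other 9. Mpo, Ccr2 and Cd79a were also higher in them without overlap. S100a8 set the libraries numbered 4 apart in HPC (215 to 672 CPM, against 5.06 to 34.6) and pGM (236 to 268, against 3.58 to 67) as well. In GMP, S100a8 overlapped and Csf1r did not (258 to 298 CPM, against 86 to 244). Csf1r overlapped in HPC and pGM. The part of the libraries numbered 4 in the results was not tested beyond leaving them out.

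Across the wt populations, in the order HSC, HPC, pGM and GMP, 6 of the 8 receptors were higher in GMP than in HSC, and Csf2rb2 and Epor were lower. The largest differences were a 67.8-fold higher Csf1r and a 21.7-fold lower Epor in GMP than in HSC, and the Epor value rested on few reads (log2 difference -4.44, and -6.04 without GMP wt replicate 4). Of 48 tests of the 8 members over the 6 population pairs, 30 were called (25 to 31 when any single library was left out, and 24 without the libraries numbered 4). In these bulk libraries, fewer cells of a type and less RNA per cell cannot be told apart. The background was high, since the populations differed in much of the transcriptome: 61.2% of all genes tested were called in GMP against HSC, where 8 of 8 members were, 6 higher and 2 lower. The share of all genes called was 22.8% in HPC against HSC, where 5 members were called (3 higher, 2 lower), and 41.4% in pGM against HSC, where 7 were (5 higher, 2 lower). It was 12% in pGM against HPC with 2 members called, both higher, 47.9% in GMP against HPC with 5, all higher, and 29% in GMP against pGM with 3 (2 higher, 1 lower). The members' median log2 difference in GMP against HSC was 1.31, beside -0.16 over all genes. It was 1.11 beside -0.02 in pGM against HSC, and 0.42 beside -0.03 in HPC against HSC.

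**Figure D1:**
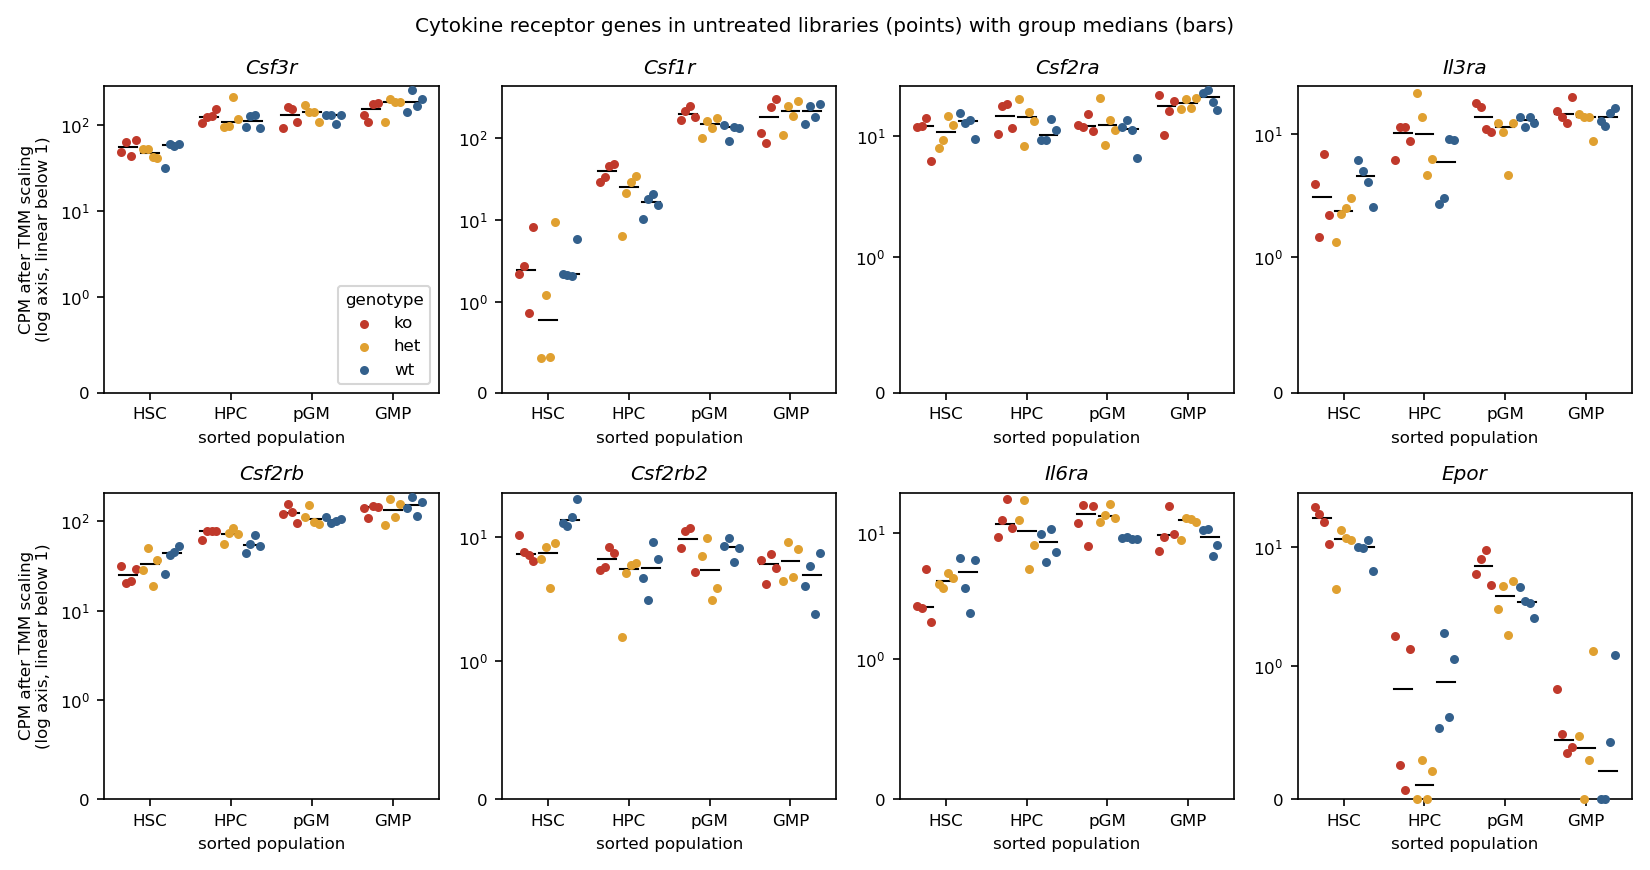
CPM (log axis, linear below 1) of the 8 receptor genes in the 48 untreated libraries, by population and genotype (ko, het, wt), each point 1 library and each bar a group median. Csf1r runs from 2.07 to 5.81 CPM in wt HSC to 148 to 258 CPM in wt GMP, and Epor from 6.27 to 11.4 CPM in wt HSC to 0 to 1.25 CPM in wt GMP.

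Among the single-chain receptors of the granulocyte and monocyte lineages, Csf1r showed the steepest gradient. Csf1r stood at 2.18, 2.11, 2.07 and 5.81 CPM in the wt HSC libraries, 10.3, 18, 20.8 and 15.2 CPM in HPC, 141, 92.3, 134 and 133 CPM in pGM, and 148, 244, 179.7 and 258 CPM in GMP. No 2 populations overlapped, and the highest HSC library was the one numbered 4. Csf1r rose by log2 2.40 ± 0.61 (SE) in HPC against HSC (adjusted p 0.00357), by 2.96 ± 0.58 in pGM against HPC (0.000505) and by 6.08 ± 0.69 in GMP against HSC (1.23e-09). The last step, GMP against pGM, was 0.73 ± 0.54 and not called (adjusted p 0.332). Exons of Csf1r (chr18:61100598-61132149, GRCm38) share 873 bases with the opposite-strand gene Hmgxb3, and no source used here says whether the counting used strand, so reads of the 2 genes cannot be told apart there. Csf3r, the G-CSF receptor, was already abundant in HSC and climbed more slowly. Its wt libraries held 31.6, 60.2, 57.3 and 59.9 CPM in HSC, 96.2, 128, 132 and 94.4 CPM in HPC, 131, 132, 103 and 132 CPM in pGM, and 142, 259, 169 and 202 CPM in GMP. HSC lay below the other 3 populations without overlap, HPC and pGM overlapped, and GMP lay above both. Csf3r rose by 1.11 ± 0.23 in HPC against HSC (0.000344) and by 1.89 ± 0.24 in GMP against HSC (4.63e-09), while pGM against HPC was 0.14 ± 0.23 (adjusted p 0.744). Its call in GMP against pGM (0.63 ± 0.23, adjusted p 0.0336) ended without GMP wt replicate 2 (0.172) or 4 (0.0681), without pGM wt replicate 1 (0.0526), 2 (0.0541) or 3 (0.105), without all libraries numbered 4 (0.106), and without the filter on low counts (0.0635). Its call in GMP against HPC (0.78 ± 0.23, adjusted p 0.00495) ended only when all libraries numbered 4 were left out (0.0590).

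The alpha chains took different courses. Il3ra, which binds IL-3, held 6.16, 4.97, 4.08 and 2.55 CPM in wt HSC, 2.68, 3.01, 9.13 and 8.91 CPM in HPC, 13.8, 11.3, 13.7 and 12.2 CPM in pGM, and 12.8, 11.6, 14.9 and 16.4 CPM in GMP. HSC and HPC overlapped, as did pGM and GMP, and every library of the later pair lay above every library of the earlier pair. Il3ra rose by 1.52 ± 0.40 in pGM against HSC (adjusted p 0.00217) and by 1.65 ± 0.41 in GMP against HSC (0.000552). Its call in GMP against HPC (1.23 ± 0.40, adjusted p 0.0103) ended without HPC wt replicate 1 (0.0541) or 2 (0.0518), the 2 low HPC libraries. Its difference in pGM against HPC (1.1 ± 0.40, adjusted p 0.0628) was called only without HPC wt replicate 3 (0.0340) or 4 (0.0423), the 2 high ones. Csf2ra, which binds GM-CSF, had the smallest log2 differences of HPC and of pGM from HSC among the members (none called). It held 15.3, 12.7, 13.5 and 9.37 CPM in wt HSC, 9.24, 9.27, 13.7 and 11.1 CPM in HPC, 11.7, 13.4, 11.1 and 6.51 CPM in pGM, and 22.4, 23.9, 19.0 and 16.1 CPM in GMP. The first 3 populations overlapped and GMP lay above all of them. Csf2ra rose in GMP by 0.93 ± 0.27 against pGM (adjusted p 0.00715) and by 0.91 ± 0.27 against HPC (0.00500). The call in GMP against HSC (0.68 ± 0.27, adjusted p 0.0269) ended without GMP wt replicate 1 (0.0785) or 2 (0.0973), without HSC wt replicate 4 (0.0988), without all libraries numbered 4 (0.0713), and without the filter on low counts (0.0698). Exons of Il3ra (chr14:14346275-14356011) share 46 bases with the antisense gene Gm48860, whose reads cannot be told apart there.

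The 2 beta chains ran in opposite directions. Csf2rb, the chain shared by the GM-CSF, IL-3 and IL-5 receptors, held 25.7, 41.9, 45.6 and 52.9 CPM in wt HSC, 44.1, 55.9, 70.1 and 52.6 CPM in HPC, 111, 96.7, 101 and 107 CPM in pGM, and 139, 187, 115 and 163 CPM in GMP. HSC and HPC overlapped, and pGM and GMP each lay above the population before. Csf2rb rose by 1.33 ± 0.23 in pGM against HSC (adjusted p 6.49e-06), by 1.86 ± 0.23 in GMP against HSC (2.56e-09) and by 1.44 ± 0.23 in GMP against HPC (9.41e-07). Its call in pGM against HPC (0.90 ± 0.22, adjusted p 0.00456) ended only without all libraries numbered 4 (0.0611), and its difference in GMP against pGM (0.54 ± 0.22, adjusted p 0.0635) was called without GMP wt replicate 3 (0.0429), with DESeq2 (0.0390), with RLE scaling (0.0470) and without GMP het 1 and GMP ko 2 (0.0458). Csf2rb2, the IL-3-specific chain, was highest in HSC: its wt libraries held 13.0, 12.3, 14.7 and 20.3 CPM in HSC, 4.69, 3.13, 9.13 and 6.67 CPM in HPC, 8.51, 9.85, 6.30 and 8.22 CPM in pGM, and 4.04, 5.92, 2.40 and 7.52 CPM in GMP. HSC lay above the other 3 populations, which overlapped one another. Csf2rb2 fell by log2 1.35 ± 0.36 in HPC against HSC (adjusted p 0.00500) and by 1.60 ± 0.37 in GMP against HSC (0.000262). The call in pGM against HSC (-0.87 ± 0.36, adjusted p 0.0461) ended without HSC wt replicate 1 (0.0523), 3 (0.0652) or 4 (0.154), without pGM wt replicate 1 (0.0734), 3 (0.127) or 4 (0.0827), without all libraries numbered 4 (0.225), and without the filter on low counts (0.0596).

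Csf2rb and Csf2rb2 lie beside each other on chromosome 15 (78325752 to 78353847 on the plus strand, and 78282507 to 78305721 on the minus strand) and are close copies. Of the 50-base words in their coding transcripts, 892 are shared, 17.1% of those of Csf2rb and 18.8% of those of Csf2rb2, so the split of reads between them is uncertain. Csf2rb2 took 27.1 ± 4.82% of the reads of the pair in wt HSC, 9.42 ± 2.88% in HPC, 7.33 ± 1.41% in pGM and 3.09 ± 0.985% in GMP (SD, n = 4 each), given as a description with no test. The ko libraries ran in the same order, with 24.0 ± 3.92%, 8.43 ± 1.22%, 6.74 ± 1.46% and 4.18 ± 0.483%. The het libraries held 17.5 ± 2.28% in HSC, the lowest of the 3 genotypes there, and 5.96 ± 2.22%, 4.78 ± 1.48% and 4.67 ± 0.389% in the later populations.

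**Figure D2:**
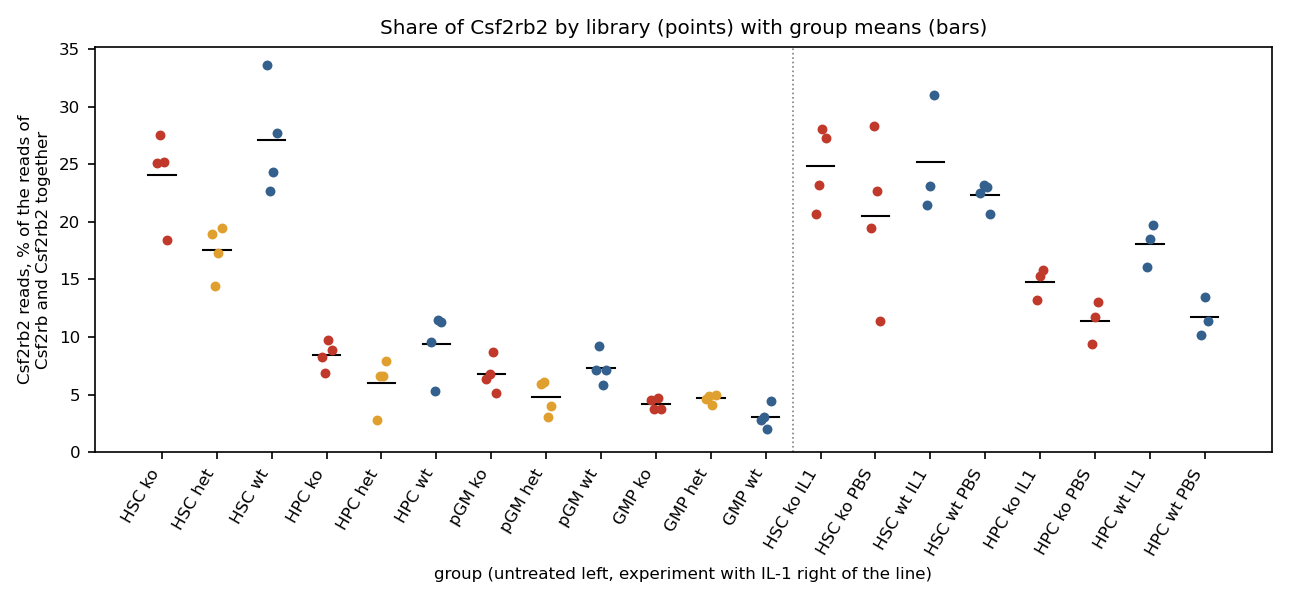
Share of Csf2rb2 in the reads counted on Csf2rb and Csf2rb2 together (percent), 1 point per library, by population and genotype or treatment, with group means. The wt means are 27.1% in HSC and 3.09% in GMP, and in wt HPC they are 18.1% after IL-1 and 11.7% after PBS.

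Il6ra, the IL-6 receptor chain, was low in every population, and HSC was the lowest. It held 6.31, 3.65, 2.33 and 6.06 CPM in wt HSC, 9.77, 5.84, 10.8 and 7.07 CPM in HPC, 9.07, 9.33, 8.87 and 8.87 CPM in pGM, and 10.6, 10.7, 6.61 and 8.07 CPM in GMP. HSC and HPC overlapped, whereas pGM and GMP lay above HSC. Il6ra rose by 0.97 ± 0.32 in pGM against HSC (adjusted p 0.0125) and by 0.97 ± 0.32 in GMP against HSC (0.00848), and both calls ended without HSC wt replicate 3, the lowest library (0.0672 and 0.0505). The call in HPC against HSC (0.86 ± 0.32, adjusted p 0.0443) ended without HPC wt replicate 1 (0.117) or 3 (0.137), without HSC wt replicate 2 (0.115) or 3 (0.170), without all libraries numbered 4 (0.0592), with RLE scaling (0.0617), without the filter on low counts (0.0790) and with the replicate block (0.0572). Exons of Il6ra (chr3:89864059-89913196) share 242 bases with the antisense gene Gm42809, whose reads cannot be told apart there.

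Epor, the erythropoietin receptor (chr9:21958897-21963506), was the only member with libraries at 0 reads, and its course was not monotonic. It held 10.04, 9.82, 11.4 and 6.27 CPM in wt HSC, 0.536, 1.89, 0.620 and 1.15 CPM in HPC, 4.60, 3.51, 3.38 and 2.56 CPM in pGM, and 0, 0, 0.429 and 1.25 CPM in GMP. HSC lay above the rest, pGM lay above both HPC and GMP, and HPC and GMP overlapped. Against HSC, Epor fell by log2 3.15 ± 0.65 in HPC (adjusted p 0.000251) and by 4.44 ± 0.73 in GMP (1.24e-06), and against pGM it fell by 3.02 ± 0.72 in GMP (0.00105). Without GMP wt replicate 4, the highest GMP library, these 2 GMP differences were -6.04 (adjusted p 2.95e-07) and -4.59 (0.000121), and without all libraries numbered 4 they were -6.16 (1.72e-06) and -4.71 (0.000309). At the depth of GMP wt replicates 1 and 2, a count of 0 allows up to 0.198 and 0.182 CPM (3 reads, counting error only). These limits are before TMM scaling, unlike the levels. The call in pGM against HSC (-1.42 ± 0.59, adjusted p 0.0496) ended without HSC wt replicate 1 (0.0820), 2 (0.0758) or 3 (0.0969), without pGM wt replicate 1 (0.0569), 2 (0.0830), 3 (0.0932) or 4 (0.119), without all libraries numbered 4 (0.0888), without the filter on low counts (0.0720), and with the Y-linked covariate (0.0524). The higher level in pGM than in HPC (1.73 ± 0.63, adjusted p 0.0661) was called without HPC wt replicate 2 (0.0482) and by DESeq2 (0.0359). In GMP against HPC, -1.29 ± 0.75 (adjusted p 0.154), Epor was called without GMP wt replicate 4 (0.0127) and without all libraries numbered 4 (0.0275), both with larger differences (-2.88 and -2.81).

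Sequences upstream of the transcription start are shown for the 2 members that fell from HSC to GMP and, for contrast, for Il6ra, which rose. They are the 250 bases before the start in RefSeq's GRCm38.p6 annotation, read along the gene's own strand, and all 3 genes lie on the minus strand. Capitals mark matches, on either strand, to the letters GAGGAA (the core bound by PU.1), TTGCNNAA (C/EBP), AGATAA (bound by GATA factors) and TGTGGT (RUNX), which are held by 23.3%, 9.56%, 9.99% and 14% of the same windows of 32851 annotated promoters.
Csf2rb2 (chr15:78305722-78305971): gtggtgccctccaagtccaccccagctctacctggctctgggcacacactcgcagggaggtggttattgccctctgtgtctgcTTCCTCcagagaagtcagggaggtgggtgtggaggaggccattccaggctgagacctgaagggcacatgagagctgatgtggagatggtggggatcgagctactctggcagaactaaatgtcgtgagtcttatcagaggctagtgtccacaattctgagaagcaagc
Epor (chr9:21963577-21963826): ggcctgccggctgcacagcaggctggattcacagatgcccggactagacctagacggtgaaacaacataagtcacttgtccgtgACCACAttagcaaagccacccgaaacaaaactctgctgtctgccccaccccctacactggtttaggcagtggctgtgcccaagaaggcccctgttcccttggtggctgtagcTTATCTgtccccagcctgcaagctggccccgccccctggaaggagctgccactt
Il6ra (chr3:89913197-89913446): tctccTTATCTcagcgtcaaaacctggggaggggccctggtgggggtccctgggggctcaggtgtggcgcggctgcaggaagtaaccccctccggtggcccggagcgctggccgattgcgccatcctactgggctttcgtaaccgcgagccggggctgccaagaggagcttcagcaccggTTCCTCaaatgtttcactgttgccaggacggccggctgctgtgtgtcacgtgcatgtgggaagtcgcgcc
Csf2rb2 held 1 GAGGAA, as its reverse complement. Epor held 1 AGATAA and 1 TGTGGT, both as reverse complements, and Il6ra held 1 AGATAA and 1 GAGGAA, both as reverse complements. Of the other windows examined, that of Csf2ra held 2 GAGGAA side by side, that of Csf3r 1 GAGGAA and that of Il3ra 1 TTGCNNAA. The windows of Csf1r and Csf2rb were not examined. Such a match is a run of letters and not evidence of binding.

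Per length of merged exons, which allows levels to be compared between genes, Csf3r was the highest of the 8 in every wt population. Its mean was 14.5 ± 3.84 CPM per kb in HSC, 31.2 ± 5.58 in HPC, 34.5 ± 4.07 in pGM and 53.5 ± 13.8 in GMP (SD, n = 4 each). Csf1r climbed from the last place in HSC (0.527 ± 0.319 CPM per kb, level with Il6ra at 0.531 ± 0.222) to the fourth in HPC (2.79 ± 0.775) and to the second in pGM and GMP (21.7 ± 3.84 and 35.9 ± 9.05). Csf2rb was second in HSC and HPC (5.71 ± 1.58 and 7.65 ± 1.49 CPM per kb) and in the third place in pGM and GMP (14.3 ± 0.889 and 20.8 ± 4.26). In HSC, the SDs of Csf2rb, Epor (4.72 ± 1.11), Csf2ra (4.43 ± 0.862) and Csf2rb2 (3.18 ± 0.764) reached one another's neighbours in this order. Epor moved from the third place in HSC to the last in HPC (0.527 ± 0.313) and GMP (0.212 ± 0.297), and in pGM it stood level with Csf2rb2 (1.77 ± 0.422 and 1.73 ± 0.309). Il3ra passed Csf2ra in pGM (4.31 ± 0.406 and 3.72 ± 1.03) and lay below it in GMP (4.69 ± 0.728 and 7.09 ± 1.22).

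**Figure D3:**
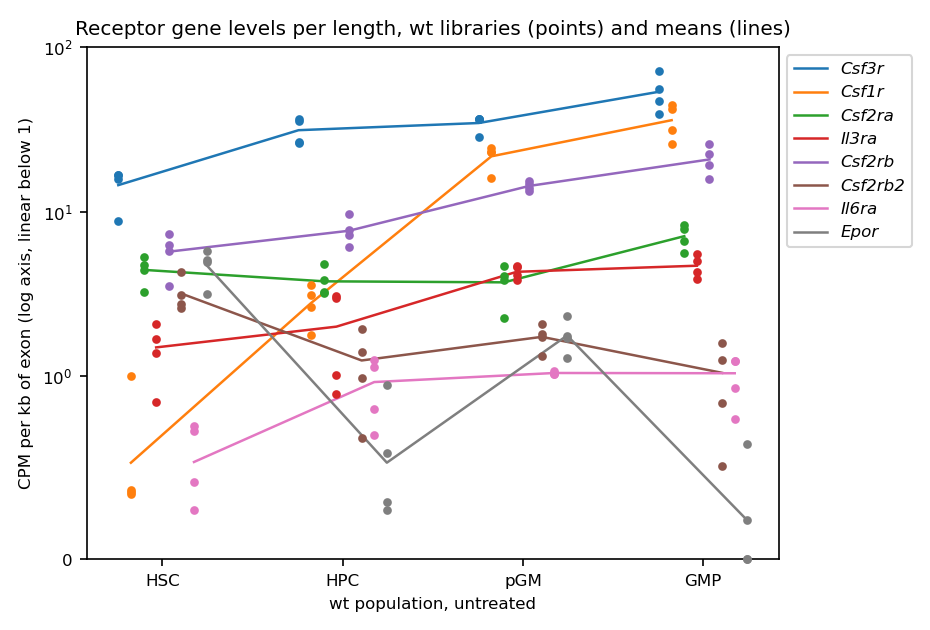
Level per kilobase of merged exon (CPM per kb, axis logarithmic above 1 and linear below) of the 8 receptors in the untreated wt libraries of HSC, HPC, pGM and GMP, points for libraries (n = 4 per population) and lines through the means. Csf3r is the highest line throughout, Csf1r climbs from 0.527 to 35.9 and Epor ends at 0.212 CPM per kb.

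The genes whose log CPM was most like a member's over the 48 untreated libraries were named by Pearson's r, as a description that shares the same libraries and the same population differences. Csf1r was most like Irf8, a transcription factor of monocyte and dendritic cell development (r = 0.972 over 48 libraries, and 0.950 over the 27 of the second experiment), then Tifab and Slc4a8 (0.966 each). Csf2rb was most like Mgat5 (0.942) and Parp8 (0.940), and next came another member, Csf1r (0.936, and 0.890 in the second experiment). Il6ra had Cebpa, a transcription factor of granulocyte and monocyte development, in the third place among its genes (0.855, and 0.680 in the second experiment), after Igfbp4 (0.885) and Usp1 (0.866). Epor was most like Ces2g (0.884), Slc18a2 (0.846) and Tfr2 (0.846), the transferrin receptor of erythroid and liver cells. For Csf3r the values were 0.917 for Aldh1b1, 0.916 for Timeless and 0.915 for Ncf4, and for Il3ra 0.866 for Hells, 0.860 for Ppp4c and 0.845 for Srrt. Csf2rb2 had no close match, with a highest value of 0.696 (Zfyve27), which was 0.229 in the second experiment.

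The other genes of these pathways, in lists chosen with results of these data known, were in 4 of 5 lists more often lower than higher in wt GMP than in HSC, as were all genes tested (4162 higher, 5088 lower and 61.2% called), and no difference from that background was tested. Of 26 kinases, STATs and adaptors tested, 4 rose and 15 fell (median log2 difference -0.61, beside -0.16 over all genes), and Jak2, the kinase bound by Epor, Csf2rb and Csf3r, fell by 1.53. Of 26 feedback inhibitors and targets, 2 rose and 18 fell (median -1.13). Socs2 and Cish, inhibitors induced by STAT5, fell by 7.52 and 5.46, while Myc rose by 0.99. Of 26 other haematopoietic receptors, 4 rose and 14 fell (median -0.46), among them Ifngr1, a chain of the interferon-gamma receptor, 2.39 higher. Of 19 transcription factors of myeloid and erythroid genes, 9 rose and 8 fell (median -0.22): Cebpe, Irf8 and Cebpa rose by 5.56, 4.78 and 4.53, and Gfi1b, a factor of red cell and platelet development, fell by 5.30. Only 4 of 14 ligands could be tested, and of these Csf1 fell by 1.66 and Osm by 0.88.

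HPC against HSC could be compared again in the wt PBS libraries of the second experiment, and the pattern of 5 called members differed in part from the untreated one. Csf1r, Csf3r, Il3ra and Il6ra were higher and Epor lower in HPC, where 13.8% of all genes were called. Epor held 1.53, 0.494 and 1.45 CPM in HPC, against 12.2, 9.42, 12.01 and 6.87 CPM in HSC (log2 difference -3.12 ± 0.41, adjusted p 3.90e-06), and no library overlapped. Csf1r held 27.2, 26.6 and 38.9 CPM in HPC, against 4.73, 1.36, 2.20 and 0.398 CPM in HSC (3.82 ± 0.61, adjusted p 7.92e-05, and 4.52 without HSC wt PBS replicate 1). Both kept their untreated direction and call, as did Csf3r and Il6ra, whereas Il3ra was not called in the untreated libraries. Csf3r (1.11 ± 0.30, adjusted p 0.0121) lost its call without HPC wt PBS replicate 3 (0.06), Il3ra (1.16 ± 0.30, 0.00883) without HPC wt PBS replicate 1 (0.0659), and Il6ra (1.3 ± 0.38, 0.0200) without HPC wt PBS replicate 3 (0.211) or HSC wt PBS replicate 1 (0.0686) or 3 (0.0541). Csf2rb2 was not called here (-0.37 ± 0.38, adjusted p 0.610): its 8.40, 9.78 and 13.98 CPM in HPC overlapped the 18.7, 16.5, 12.3 and 7.92 CPM in HSC. Csf2rb (0.78 ± 0.28, adjusted p 0.0687) was called without HSC wt PBS replicate 1 (0.0371) and by DESeq2 (0.0460).

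Between genotypes of the untreated mice, few receptor genes differed: Csf1r was higher in ko than in wt pGM, and no other member was called in any population. That is 1 of 31 member tests of ko against wt, with 8 at an unadjusted p below 0.05 and 3 called by DESeq2. Over all genes, ko against wt called 1.78% in HSC, 1.1% in HPC, 1.94% in pGM and 0.555% in GMP, so 1 in 31 is near the background of calls. An unadjusted p below 0.05 was reached by 10.7%, 8.26%, 9.20% and 9.32% of all genes in the same order. Csf1r held 166, 214, 242 and 178 CPM in ko pGM, 99.1, 161, 132 and 175 CPM in het pGM, and 141, 92.3, 134 and 133 CPM in wt pGM. Every ko library lay above every wt library, and the het libraries overlapped both. Csf1r rose by log2 0.69 ± 0.16 in ko pGM (1.61-fold, adjusted p 0.0406), and this call was kept by 5 of 16 alternative settings. It ended without pGM ko replicate 2 (0.0997), 3 (0.136) or 4 (0.0735), without pGM wt replicate 1 (0.0633), 2 (0.126), 3 (0.0790) or 4 (0.0790), without all libraries numbered 4 (0.0934), without the filter on low counts (0.0511), with the replicate block (0.0594) and with all libraries in 1 fit (1.00), while the log2 difference stayed between 0.57 and 0.76 in these. Summed macrophage and monocyte markers ran at 207 to 240 CPM in ko pGM, against 219 to 256 CPM in wt pGM, with 1 of 11 tested higher (Cd68, 0.51) and none lower. Summed granulocyte-monocyte progenitor markers ran at 20025 to 22626 CPM in ko pGM, against 16366 to 22501 CPM in wt pGM, with none of 10 called. Mast cell and basophil markers ran at 310 to 398 CPM in ko pGM, against 618 to 832 CPM in wt pGM, with 3 of 7 lower. Another 3 sums did not overlap: erythroid markers (357 to 396 CPM in ko, against 154 to 263 CPM in wt, none of 9 called), multipotent and lymphoid-primed progenitor markers (2281 to 2933 CPM, against 3085 to 3727 CPM, with 1 of 8 lower, Dntt), and megakaryocyte and platelet markers (42.3 to 98.8 CPM, against 112 to 132 CPM, with 2 of 7 lower). The part of these markers in the Csf1r difference was not tested.

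Csf1r was also higher in every ko than in every wt HPC library, without passing the test. It held 28.7, 32.7, 44.9 and 47.6 CPM in ko HPC, 6.26, 21.3, 29.1 and 34.3 CPM in het HPC, and 10.3, 18, 20.8 and 15.2 CPM in wt HPC. The log2 difference of ko from wt was 1.25 ± 0.37 (adjusted p 0.162 with edgeR, 0.0236 with DESeq2). In HPC, summed granulocyte-monocyte progenitor markers ran at 3566 to 5295 CPM in ko, against 2523 to 3005 CPM in wt, with 1 of 10 higher (Prtn3, 0.89). Summed HSC-associated markers (1055 to 1216 CPM in ko, against 1281 to 1663 CPM in wt, with 1 of 9 lower), megakaryocyte and platelet markers (25.5 to 42.9 CPM, against 84.2 to 144 CPM, with 2 of 7 lower) and stroma and endothelium markers (61.3 to 68.5 CPM, against 79.9 to 129 CPM, with 1 of 2 lower) did not overlap either. The macrophage and monocyte sums overlapped (157 to 208 CPM, against 149 to 234 CPM), with 1 of 11 higher (Cd68, 0.82), and the part of these markers was not tested. In HSC, Csf1r stayed under 10 CPM in all genotypes (ko against wt 0.17 ± 0.94), and in GMP it was 113.7, 86.0, 240.1 and 298 CPM in ko, against 148, 244, 179.7 and 258 CPM in wt (-0.17 ± 0.35). The spread of the ko GMP libraries covered that of the wt libraries.

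Csf2rb2, the IL-3-specific beta chain, separated both Cre-carrying genotypes from wt in HSC. It held 10.6, 7.66, 7.16 and 6.50 CPM in ko, 6.68, 8.41, 3.90 and 8.99 CPM in het, and 13.0, 12.3, 14.7 and 20.3 CPM in wt HSC, so that all 8 ko and het libraries lay below all 4 wt libraries. The log2 difference was -0.93 ± 0.28 for ko (adjusted p 0.134 with edgeR, 0.0394 with DESeq2) and -1.12 ± 0.28 for het (unadjusted p 0.00105, adjusted p 0.630), so neither was called by edgeR. Both comparisons share the wt libraries. Csf2rb in HSC held 31.6, 20.2, 21.2 and 28.8 CPM in ko, 28.7, 50, 18.6 and 37.1 CPM in het, and 25.7, 41.9, 45.6 and 52.9 CPM in wt, with overlap and a log2 difference of -0.72 ± 0.28 for ko (adjusted p 0.328). In ko HSC against wt HSC, 3 of 11 macrophage and monocyte markers (summed 62.8 to 112 CPM in ko, against 92.4 to 178 CPM in wt), 4 of 8 megakaryocyte and platelet markers (276 to 373 CPM, against 497 to 657 CPM) and 3 of 3 tested markers of stroma and endothelium (73.5 to 82.2 CPM, against 190 to 252 CPM) were lower, and their part in the beta-chain values was not tested. In the later populations Csf2rb2 did not separate ko from wt, with log2 differences of 0.18 in HPC, 0.16 in pGM and 0.27 in GMP.

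In pGM the 4 ko libraries of Epor, the erythropoietin receptor, lay above its 4 wt libraries. It held 5.94, 7.98, 9.39 and 4.79 CPM in ko, 3.05, 4.73, 1.83 and 5.17 CPM in het, and 4.60, 3.51, 3.38 and 2.56 CPM in wt pGM (ko against wt 1.00 ± 0.32, adjusted p 0.159). Summed erythroid markers ran at 357 to 396 CPM in ko pGM, against 154 to 263 CPM in wt pGM, with none of 9 tested called, and their part in the Epor difference was not tested. In HSC it held 21.6, 18.8, 16.2 and 10.7 CPM in ko, against 10.04, 9.82, 11.4 and 6.27 CPM in wt, which overlap (0.83 ± 0.32, adjusted p 0.307). In HPC, Epor stood at 0 to 0.294 CPM in het, with 0 reads in replicates 1 and 3, against 0.536 to 1.89 CPM in wt. The het libraries all lay lower there, without a call (unadjusted p 0.00883, adjusted p 0.963), and a count of 0 allows up to 0.175 and 0.159 CPM (before TMM scaling) in those 2 libraries. In GMP too few reads fell on Epor for a test. Il6ra, the IL-6 receptor chain, held 12.2, 13.9, 16.9 and 13.1 CPM in het pGM, above the 8.87 to 9.33 CPM of wt pGM (0.64 ± 0.22, adjusted p 0.500). The remaining members, Csf2ra, Csf3r and Il3ra, overlapped between ko and wt in all 4 populations, with log2 differences of -0.35 to 0.65.

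**Figure D4:**
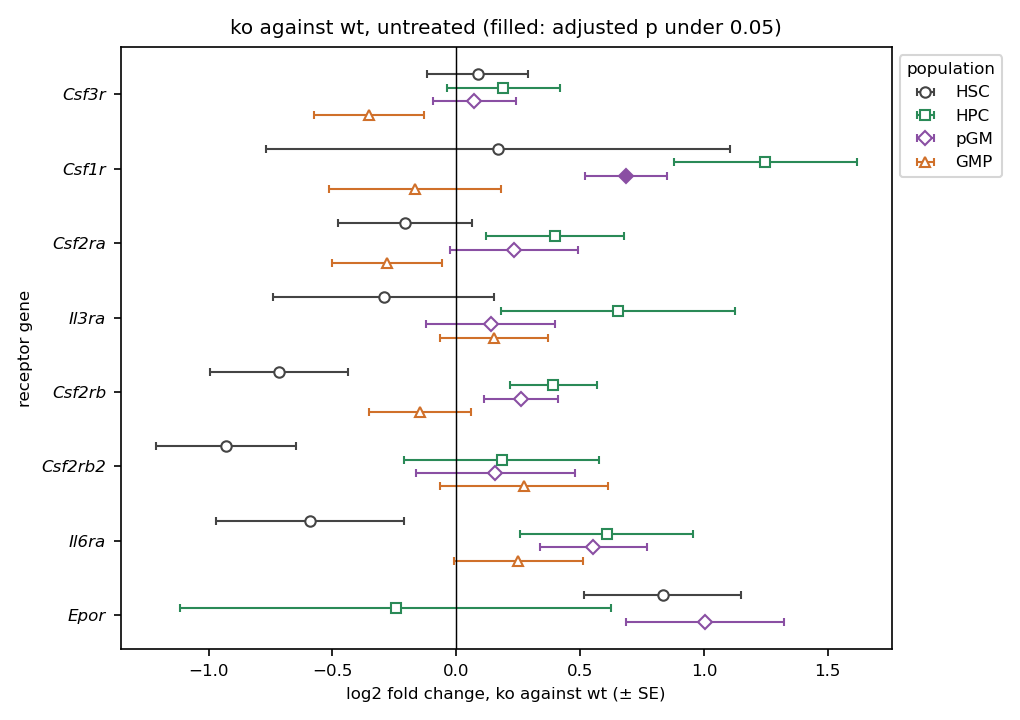
Log2 fold change of ko against wt, with its standard error, for each receptor in untreated HSC, HPC, pGM and GMP (edgeR, 4 libraries per group). Filled points mark calls, of which there is 1, Csf1r in pGM at 0.69, and Epor has no GMP point because it had too few reads there for a test.

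For het against wt, edgeR called 0 of 31 member tests, DESeq2 0, and 4 had an unadjusted p below 0.05. The share of all genes called was 0.00724% in HSC, 0.00753% in HPC, 0.0155% in pGM and 0.00828% in GMP. In the same order, 5.49%, 4.22%, 7.35% and 2.78% of all genes had an unadjusted p below 0.05. For ko against het, edgeR also called 0 of 31 and DESeq2 0, where 0.326%, 0.196%, 0.564% and 0.0166% of all genes were called in HSC, HPC, pGM and GMP. At an unadjusted p below 0.05 there were 4 member tests, beside 7.19%, 6.21%, 8.59% and 4.45% of all genes. The difference of the ko effect between populations was tested as an interaction, with HSC as the base, and edgeR called 0 of 24 member tests (DESeq2 0, 7 at an unadjusted p below 0.05). Of all genes, 0.232% were called for HPC minus HSC, 0.218% for pGM minus HSC and 0.390% for GMP minus HSC. In the same order, 6.86%, 5.02% and 9.65% of all genes had an unadjusted p below 0.05. The lowest adjusted p was that of Csf2rb for HPC minus HSC (1.11 ± 0.32, adjusted p 0.233). The Csf2rb2 differences were 1.11, 1.07 and 1.18 for HPC, pGM and GMP minus HSC (adjusted p 0.698, 0.929 and 0.441). Of the pathway lists in pGM, ko against wt called 1 of 26 kinases, STATs and adaptors (Dok2, an adaptor that restrains signalling, 1.28 lower) and 1 of 19 transcription factors (Gata1, the erythroid factor, 0.80 higher), and none of 23 other receptors, 25 feedback genes and 3 ligands. Dok2 was also lower in ko HSC (-2.13), in ko HPC (-0.98) and in ko HSC after PBS (-2.31), Syk, a kinase of immune receptor signalling, was lower in ko HSC (-0.71), and Gata2, a factor of stem and progenitor cells, was higher in ko GMP (1.01).

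After PBS, none of the 8 members was called between ko and wt in either population. edgeR called 0 of 16 and DESeq2 0, with 0.798% of all genes called in HSC and 0.257% in HPC. At an unadjusted p below 0.05 there were 5 of 16, beside 9.05% of all genes in HSC and 9.04% in HPC. Csf2rb2 held 7.57, 8.19, 10.98 and 2.01 CPM in ko PBS HSC, against 18.7, 16.5, 12.3 and 7.92 CPM in wt PBS HSC. The libraries overlapped and the log2 difference of -0.94 ± 0.39 was not called (adjusted p 0.452). Csf1r in HPC held 37.3, 40.8 and 68.0 CPM in ko PBS, against 27.2, 26.6 and 38.9 CPM in wt PBS (0.65 ± 0.26, adjusted p 0.467), with overlap. Il3ra in HPC held 13.7, 10.98 and 15.3 CPM in ko PBS, against 9.60, 6.08 and 7.83 CPM in wt PBS, without overlap (0.76 ± 0.27, adjusted p 0.408). Epor did not overlap in HPC either, with 1.56 to 3.38 CPM in ko PBS and 0.494 to 1.53 CPM in wt PBS (1.03 ± 0.53, adjusted p 0.586). Of the other haematopoietic receptors, Il2rb was called in HPC after PBS, 3.69 higher in ko (adjusted p 0.0248).

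IL-1 raised 2 receptor genes in wt HPC, Csf1r and the IL-3-specific beta chain Csf2rb2, each about 3-fold. Over HSC and HPC this was 2 of 16 member tests in wt mice (3 called by DESeq2), while 0.947% of all genes were called in HPC and 0.200% in HSC. At an unadjusted p below 0.05 there were 6 of 16, beside 10.1% of all genes in HPC and 7.82% in HSC. Csf2rb2 held 29.9, 31.8 and 34.2 CPM in wt IL-1 HPC, against 8.40, 9.78 and 13.98 CPM in wt PBS HPC. The groups were far apart, and the log2 change was 1.58 ± 0.25 (2.99-fold, adjusted p 0.00511). Csf1r held 92.7, 91.5 and 80.4 CPM in wt IL-1 HPC, against 27.2, 26.6 and 38.9 CPM in wt PBS HPC, again without overlap (1.52 ± 0.27, 2.86-fold, adjusted p 0.0111). Its call ended without HPC wt PBS replicate 1 (0.0550) or 2 (0.104). Both calls ended when all libraries of the second experiment shared 1 fit (0.381 for Csf1r, 0.0716 for Csf2rb2). Csf2rb, the shared beta chain, held 156, 139.6 and 139 CPM after IL-1, against 74.3, 62.5 and 109 CPM after PBS, also without overlap. Its difference of 0.83 ± 0.20 was not called (adjusted p 0.0801) and was called without HPC wt PBS replicate 3 (0.0311), without the filter on low counts (0.0170), with the replicate block (0.0143), and by DESeq2 (0.0105). The summed reads of Csf2rb and Csf2rb2 were also called by edgeR (0.94, adjusted p 0.0419). The members' median log2 change in wt HPC was 0.54, beside -0.01 over all genes.

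**Figure D5:**
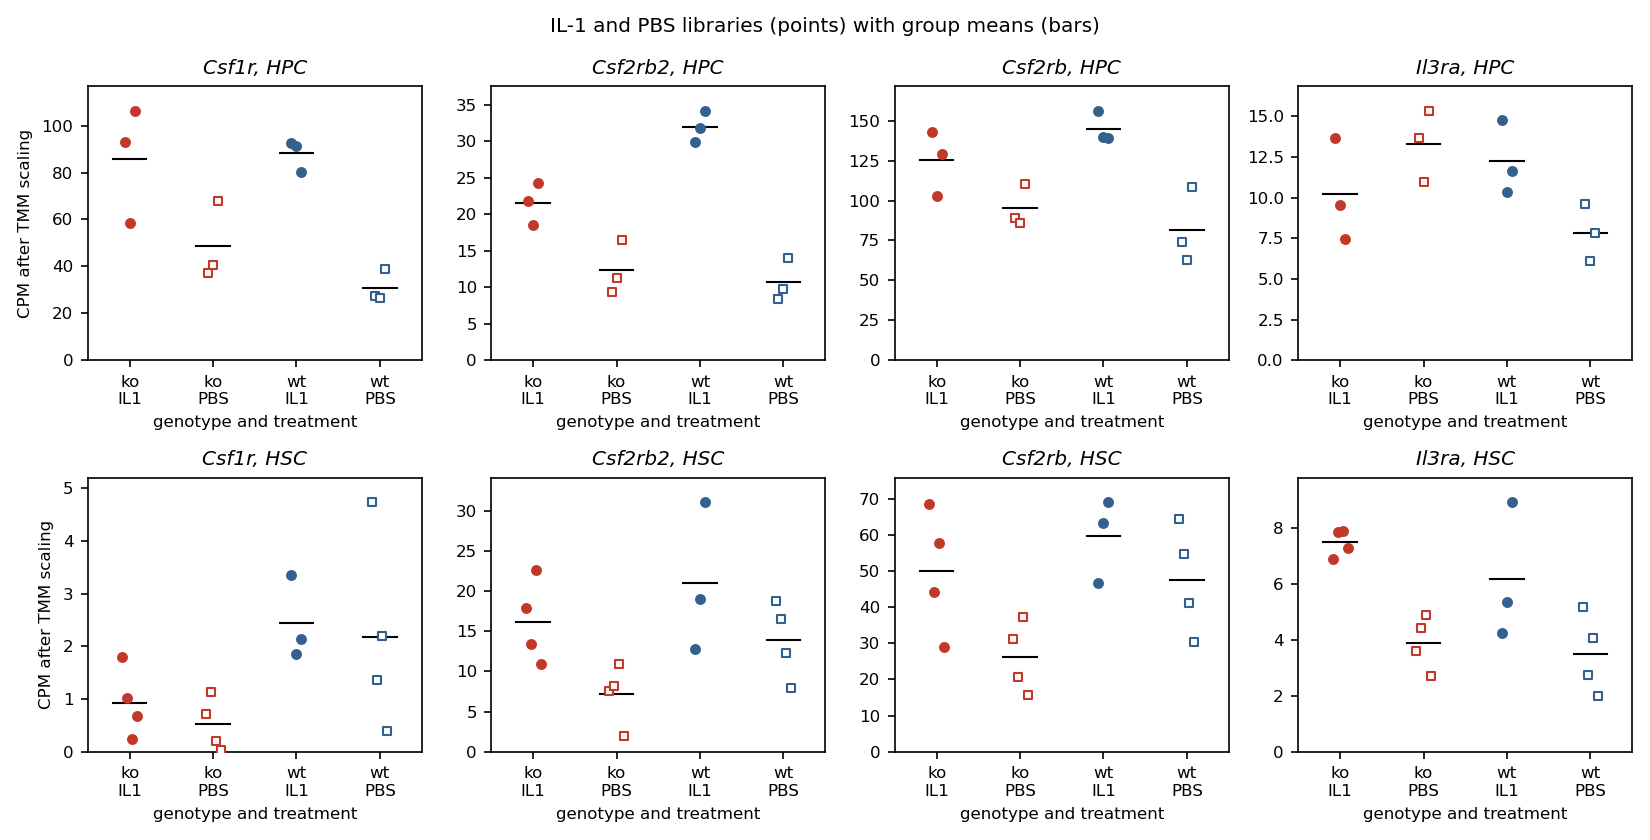
CPM (linear axis from 0) of Csf1r, Csf2rb2, Csf2rb and Il3ra in HPC (top) and HSC (bottom) after IL-1 (filled) and after PBS (open), in ko and wt mice, each point 1 library (3 or 4 per group) and each bar a group mean. In wt HPC, Csf2rb2 lies at 29.9 to 34.2 CPM after IL-1 and 8.40 to 13.98 CPM after PBS.

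The alpha chains, also higher in every wt IL-1 than in every wt PBS library of HPC, did not pass the test. Il3ra held 14.8, 10.4 and 11.6 CPM after IL-1, against 9.60, 6.08 and 7.83 CPM after PBS (0.65 ± 0.27, adjusted p 0.417), and Csf2ra held 24.1, 22.8 and 17.8 CPM, against 15.6, 14.6 and 17.7 CPM (0.44 ± 0.27, adjusted p 0.665). For Csf2ra the lowest IL-1 library and the highest PBS library were almost level. Csf3r, Il6ra and Epor overlapped, with log2 changes of 0.12, 0.12 and 0.03. Csf2rb2 took 18.1 ± 1.85% of the reads of the beta-chain pair in wt HPC after IL-1 and 11.7 ± 1.71% after PBS (SD, n = 3 each), with ranges of 16.1 to 19.7% and 10.2 to 13.5%, again as a description. Beside these changes, summed macrophage and monocyte markers ran at 228 to 295 CPM in wt IL-1 HPC, against 136 to 170 CPM in wt PBS HPC, with 2 of 12 higher (Ccr2, 1.98 and Cd68, 1.68). Summed granulocyte-monocyte progenitor markers ran at 753 to 1676 CPM after IL-1, against 849 to 1401 CPM after PBS, with 2 of 10 higher (Ms4a3, 2.52 and Igsf6, 3.35). Summed erythroid markers ran at 157 to 297 CPM after IL-1, against 57.3 to 84.2 CPM after PBS, with 1 of 8 higher (Hbb-bt, 2.18), and summed HSC-associated markers at 567 to 758 CPM, against 950 to 1453 CPM, with 1 of 10 lower (Hlf, -1.04). Mast cell and basophil sums (49 to 174 CPM after IL-1, against 21.5 to 40.7 CPM after PBS) did not overlap either. Nor did T and NK cell sums (42.2 to 50.4 CPM, against 24.6 to 34.4 CPM). The part of these markers in the receptor changes was not tested.

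In ko HPC none of these members was called. Over HSC and HPC of ko mice edgeR called 0 of 16 and DESeq2 0, with 0.433% of all genes called in HPC and 0.212% in HSC. At an unadjusted p below 0.05 there were 5 of 16, beside 6.86% of all genes in HPC and 8.79% in HSC. Csf2rb2 held 21.8, 18.5 and 24.2 CPM in ko IL-1 HPC, against 9.30, 11.3 and 16.5 CPM in ko PBS HPC, without overlap (0.81 ± 0.24, adjusted p 0.317). Csf1r held 93.1, 58.5 and 106 CPM, against 37.3, 40.8 and 68.0 CPM (0.83 ± 0.26, adjusted p 0.350), with overlap. Il3ra held 13.7, 9.57 and 7.45 CPM in ko IL-1 HPC, against 13.7, 10.98 and 15.3 CPM in ko PBS HPC (-0.38 ± 0.27, adjusted p 0.957). The difference of the IL-1 effect, ko minus wt, was tested directly. It was -0.69 ± 0.37 for Csf1r, -0.78 ± 0.34 for Csf2rb2 and -1.02 ± 0.39 for Il3ra in HPC, with adjusted p of 1.00 each, so the IL-1 effects were not shown to differ between genotypes. Over both populations edgeR called 0 of 16 such differences and DESeq2 0. Of all genes, 0% were called in HPC and 0% in HSC. At an unadjusted p below 0.05 there were 2 of 16, beside 2.21% of all genes in HPC and 4.57% in HSC.

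After IL-1, no member was called between ko and wt. edgeR called 0 of 16 and DESeq2 0, with 0% of all genes called in HSC and 0.201% in HPC. At an unadjusted p below 0.05 there were 2 of 16, beside 8.54% of all genes in HSC and 5.21% in HPC. Csf2rb2 was lower in each ko IL-1 HPC library (21.8, 18.5 and 24.2 CPM) than in each wt IL-1 HPC library (29.9, 31.8 and 34.2 CPM), a log2 difference of -0.57 ± 0.24 (adjusted p 0.868). In HSC, Csf1r held 1.79, 1.02, 0.234 and 0.670 CPM in ko IL-1, against 3.37, 1.85 and 2.14 CPM in wt IL-1, the 3.37 CPM being the library labelled HSC wt IL-1 replicate 1. The difference of -1.43 ± 0.79 (adjusted p 0.627) was -1.13 without that library (0.641). Epor in HSC held 14.04, 17.5, 16.2 and 13.5 CPM in ko IL-1, against 11.3, 10.5 and 10.4 CPM in wt IL-1, without overlap (0.47 ± 0.25, adjusted p 0.614, and 0.52 with adjusted p 0.496 without that library).

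In HSC, IL-1 changed no member by the test in either genotype. Il3ra held 6.90, 7.86, 7.92 and 7.28 CPM in ko IL-1 HSC, against 3.62, 4.41, 4.88 and 2.72 CPM in ko PBS HSC, the only member without overlap there (0.94 ± 0.31, adjusted p 0.342). In wt HSC it held 4.24, 5.36 and 8.92 CPM after IL-1, against 5.19, 2.76, 4.08 and 1.99 CPM after PBS (0.85 ± 0.33, adjusted p 0.473, and 1.05 with adjusted p 0.344 without the library labelled HSC wt IL-1 replicate 1). The beta chains in ko HSC held 68.7, 44.2, 57.9 and 29.1 CPM of Csf2rb after IL-1, against 31.2, 20.8, 37.3 and 15.6 CPM after PBS (0.94 ± 0.29, adjusted p 0.306). Csf2rb2 there held 17.9, 13.4, 22.6 and 10.9 CPM after IL-1, against 7.57, 8.19, 10.98 and 2.01 CPM after PBS (1.18 ± 0.40, adjusted p 0.364). For Csf2rb2, 1 PBS library of 4 reached the lowest IL-1 library. In wt HSC, summed erythroid markers ran at 540 to 618 CPM after IL-1, against 78.7 to 130 CPM after PBS. Granulocyte-monocyte progenitor sums did not overlap either (546 to 716 CPM, against 317 to 395 CPM). Nor did HSC-associated sums (2560 to 2712 CPM, against 2991 to 3462 CPM). All these sums overlapped in ko HSC. The part of these markers in the HSC values was not tested. Without the library labelled HSC wt IL-1 replicate 1, none of the 8 members was called in IL-1 against PBS in wt HSC, in its difference between ko and wt, or in ko against wt after IL-1 (lowest adjusted p 0.344, 0.856 and 0.496).

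The IL-1 effect was also compared between the populations, HPC minus HSC, and edgeR called 0 of 16 member tests (DESeq2 0, 2 at an unadjusted p below 0.05). Of all genes, 0.0228% were called in wt and 0% in ko, and 5.77% and 5.07% had an unadjusted p below 0.05. The Csf1r difference was 1.34 ± 0.86 in wt (adjusted p 0.873) and -0.01 ± 0.66 in ko, and that of Csf2rb2 was 0.98 ± 0.56 in wt and -0.37 ± 0.54 in ko, so the 2 calls in HPC are not shown to be particular to HPC. Without the library labelled HSC wt IL-1 replicate 1, none of the 8 members was called for this difference in wt (lowest adjusted p 0.709). In the pathway lists, IL-1 in wt HPC raised 2 of 27 other receptors (median log2 change 0.50, beside -0.01 over all genes): Il6st, which encodes the gp130 chain that Il6ra signals through, by 1.78, and Il2rb, a chain of the IL-2 and IL-15 receptors, by 3.81. Il6st also rose in ko HPC, by 1.77. In wt HPC, Socs2, an inhibitor of cytokine signalling, fell by 2.27 (1 of 26 feedback genes). None of 19 transcription factors and 3 ligands was called there. In HSC, Gata1 rose after IL-1 by 1.55 in wt and by 1.41 in ko, and Ccnd2, a cyclin induced by cytokine signals, fell by 1.28 and 1.23. The wt values of both genes include the library labelled HSC wt IL-1 replicate 1.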

How the data were processed

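Gene expression was measured by bulk RNA-seq of total RNA from sorted mouse cells. The authors deposited 2 tables of raw read counts per gene, 1 for each experiment. Per the submitters' processing notes, STAR 3.0.4, Subread and featureCounts 1.4.5 were used; for the genome build and strandedness: not given in the sources used here. Of the 41388 mouse gene IDs, 40340 were found in GENCODE M21 (GRCm38), which gave positions and merged exon lengths. Non-mouse entries of the first table, 9.57e-05% of its reads over all libraries, stayed out of all tests.

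Library depth, 13.3 to 20.8 M (median 16) and 18.6 to 42.8 M (median 32.7) reads, sets the counting error. Groups follow the labels. From the counts, edgeR 4.0.16 (R 4.3.3) was run with TMM scaling, filterByExpr (minimum count 10, minimum total 15) and robust quasi-likelihood F-tests, in 8 fits giving 34 comparisons, each adjusted over all genes tested at a threshold of 0.05. Each population was fitted alone for genotype or treatment, and all libraries of an experiment together for comparisons between populations. In ko against wt, 2-fold changes simulated in 100 genes were recovered for 47% in HSC, 74% in pGM and 21% in HPC after PBS, and 4-fold changes for 91%, 95% and 78%. Genes with few reads were left out of the simulation, so these shares do not cover members at low counts, such as Epor in HPC. Alternatives were DESeq2 1.42.0, no filter on low counts, RLE scaling, 1 fit over all libraries, a covariate of Y-linked reads, the replicate block, Csf2rb and Csf2rb2 summed, and leaving out each library. Leaving out the libraries numbered 4, and GMP het 1 with GMP ko 2, was chosen after seeing the data. Same-numbered libraries deviated together most evenly in HPC ko against wt after IL-1 (r 0.13 to 0.33 for every pair), where the block called no member. Every pair was also positive, with a lower smallest r, in other comparisons. Examples are HSC het against wt (0.06 to 0.31) and HPC IL-1 against PBS in wt (0.08 to 0.20). In HSC ko against wt, r ran from -0.10 to 0.39. Members and lists were chosen with earlier results of these data known. All 8 members are described; pathway genes are named where called, up to the 3 largest changes in each direction of each list, and the genes most like a member by Pearson's r; some genes that this rule names are not reported here.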

Additional observations from a re-analysis of the deposited data

Results flagged for a closer look

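In groups of 4 libraries, 7 of 120 sets of values held a library whose gap to the next one exceeded the 95% limit of Dixon's test, and chance alone marks about 1 group in 20. Csf1r, the M-CSF receptor, accounted for 3 of them: 9.24 CPM in HSC het replicate 4, against 0.378 to 1.19 CPM in the other 3 libraries, 5.81 CPM in HSC wt replicate 4, against 2.07 to 2.18 CPM, and 92.3 CPM in pGM wt replicate 2, against 133 to 141 CPM. Both high HSC values belong to the libraries numbered 4 that were also high in S100a8, and the low pGM value is in the group that Csf1r was called against. Csf3r was low in HSC wt replicate 1 (31.6 CPM, against 57.3 to 60.2 CPM) and in pGM wt replicate 3 (103 CPM, against 131 to 132 CPM). Csf2rb was low in HPC ko replicate 1 (61.3 CPM, against 77.0 to 78.5 CPM), and Il3ra in GMP het replicate 4 (8.70 CPM, against 13.8 to 14.6 CPM).

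Outside the mouse genes, the first human gene entry of the first table held 266 reads in pGM het replicate 1, against 0 to 11 reads in the other 47 libraries. No mouse value of the 8 receptors uses these reads.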

How the results depend on the processing

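No alternative reversed a member's called difference. Of 704 recomputed values, all from the 46 comparisons of members that were called or gained a call under some alternative, 621 kept their side of the threshold, 64 lost a call and 19 gained one. The 1 called member among the ko against wt tests of untreated libraries became 3 with DESeq2 and 0 with all libraries in 1 fit, without the filter on low counts, with the replicate block, and without the libraries numbered 4; leaving out single libraries gave 0 to 1. The 2 called for IL-1 against PBS in wt became 0 with all libraries in 1 fit and 1 to 3 when single libraries were left out. The 5 called for wt PBS HPC against HSC became 6 with DESeq2 and 3 to 5 when single libraries were left out. For pairs of wt populations, 20 of 30 calls were kept under every alternative. The causes were not tested. With the replicate block, the Csf1r difference in ko pGM was 0.67 (adjusted p 0.0594), and Csf2rb in wt HPC after IL-1 was called (0.0143). Over all genes, counts of calls moved by over 1.5 times in 26 of 34 comparisons with DESeq2, 16 of 34 with the block, 12 with the Y-linked covariate, 11 without the filter, 9 of 22 in 1 fit, 1 with RLE scaling, 13 of 21 without the libraries numbered 4, and 2 of 12 without GMP het 1 and GMP ko 2. In pGM ko against wt, 251 genes became 411 with DESeq2, 128 with the covariate and 165 without the libraries numbered 4; in wt HPC after IL-1, 151 became 459 with DESeq2, 261 without the filter and 315 with the block.

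Depth limits Epor most, with 0 reads in 5 libraries. With 3 libraries per group, only 21% of simulated 2-fold changes were recovered in HPC ko against wt after PBS, in a simulation that left out genes with few reads.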
